A study of Homo sapiens with 4 samples.

Results

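The genes of the early secretory pathway were examined in Cal-62, an established anaplastic thyroid carcinoma line. They are the genes of the deposited table whose symbols start with SEC, TMED, ERGIC or TRAPPC and a number, or name a subunit of the COPI coat, with pseudogenes left out. This gave 64 of 16717 entries in the table, of which 60 reached 1 TPM (a transcript level per length, scaled to the same total in each library) in at least 2 libraries and were tested. The other 4 stayed below this minimum. The symbol pattern also takes in SEC14-like lipid-binding proteins, 1 readthrough transcript and 2 noncoding transcripts named after their neighbours, which are not coat or cargo proteins. RNA was sequenced in 2 libraries per group, from cells given the solvent DMSO alone or niraparib, a drug that blocks PARP1 and PARP2, enzymes of DNA repair. All 4 libraries come from this 1 unmodified cell line, and neither the labels nor the study's text gives the dose or duration of treatment for the RNA sequencing. Nothing states that the replicates were separate cultures, so p measures the spread between these libraries, which may be technical.

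Proteins bound for the cell surface or for secretion enter the endoplasmic reticulum (ER) through the SEC61 channel. They leave it in vesicles coated by COPII, which the SEC16A scaffold assembles at ER exit sites, and p24 proteins (the TMED genes) and ERGIC proteins help to sort the cargo. The COPI coat returns escaped residents and receptors from the Golgi to the ER, and TRAPP complexes tether vesicles and activate RAB GTPases before SNARE proteins such as SEC22B fuse the membranes.

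Some of these genes were higher with niraparib and a few were lower. Of the 60 genes tested, 17 were higher (28.3%) and 4 were lower (6.67%), against 20.8% higher, 11.7% lower and 32.4% in either direction among all 13377 genes tested. SEC14L6, among the 17, reached 1 TPM only in the niraparib libraries, so it could enter the test only by being higher there. With 1 TPM required in every library, 16 of 59 genes were higher and 4 lower. The test was limma on log2(TPM + 1) with Benjamini-Hochberg adjustment over all genes tested and a threshold of 0.05. All changes below are log2 fold changes on that scale, niraparib minus DMSO. Of the COPI subunits 5 of 8 rose, as did ERGIC1, ERGIC3 and several TRAPP subunits. ERGIC2, TMED5, SEC61G and TRAPPC8 fell, and no subunit of the COPII inner coat passed the test. The median change was -0.000638 over the 60 genes and 0.0722 over all genes tested. TPM is a share of each library's RNA, so more of a transcript per cell and less of the other transcripts cannot be told apart, nor can a change in every cell and one in a fraction of the cells.

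**Figure D1:**
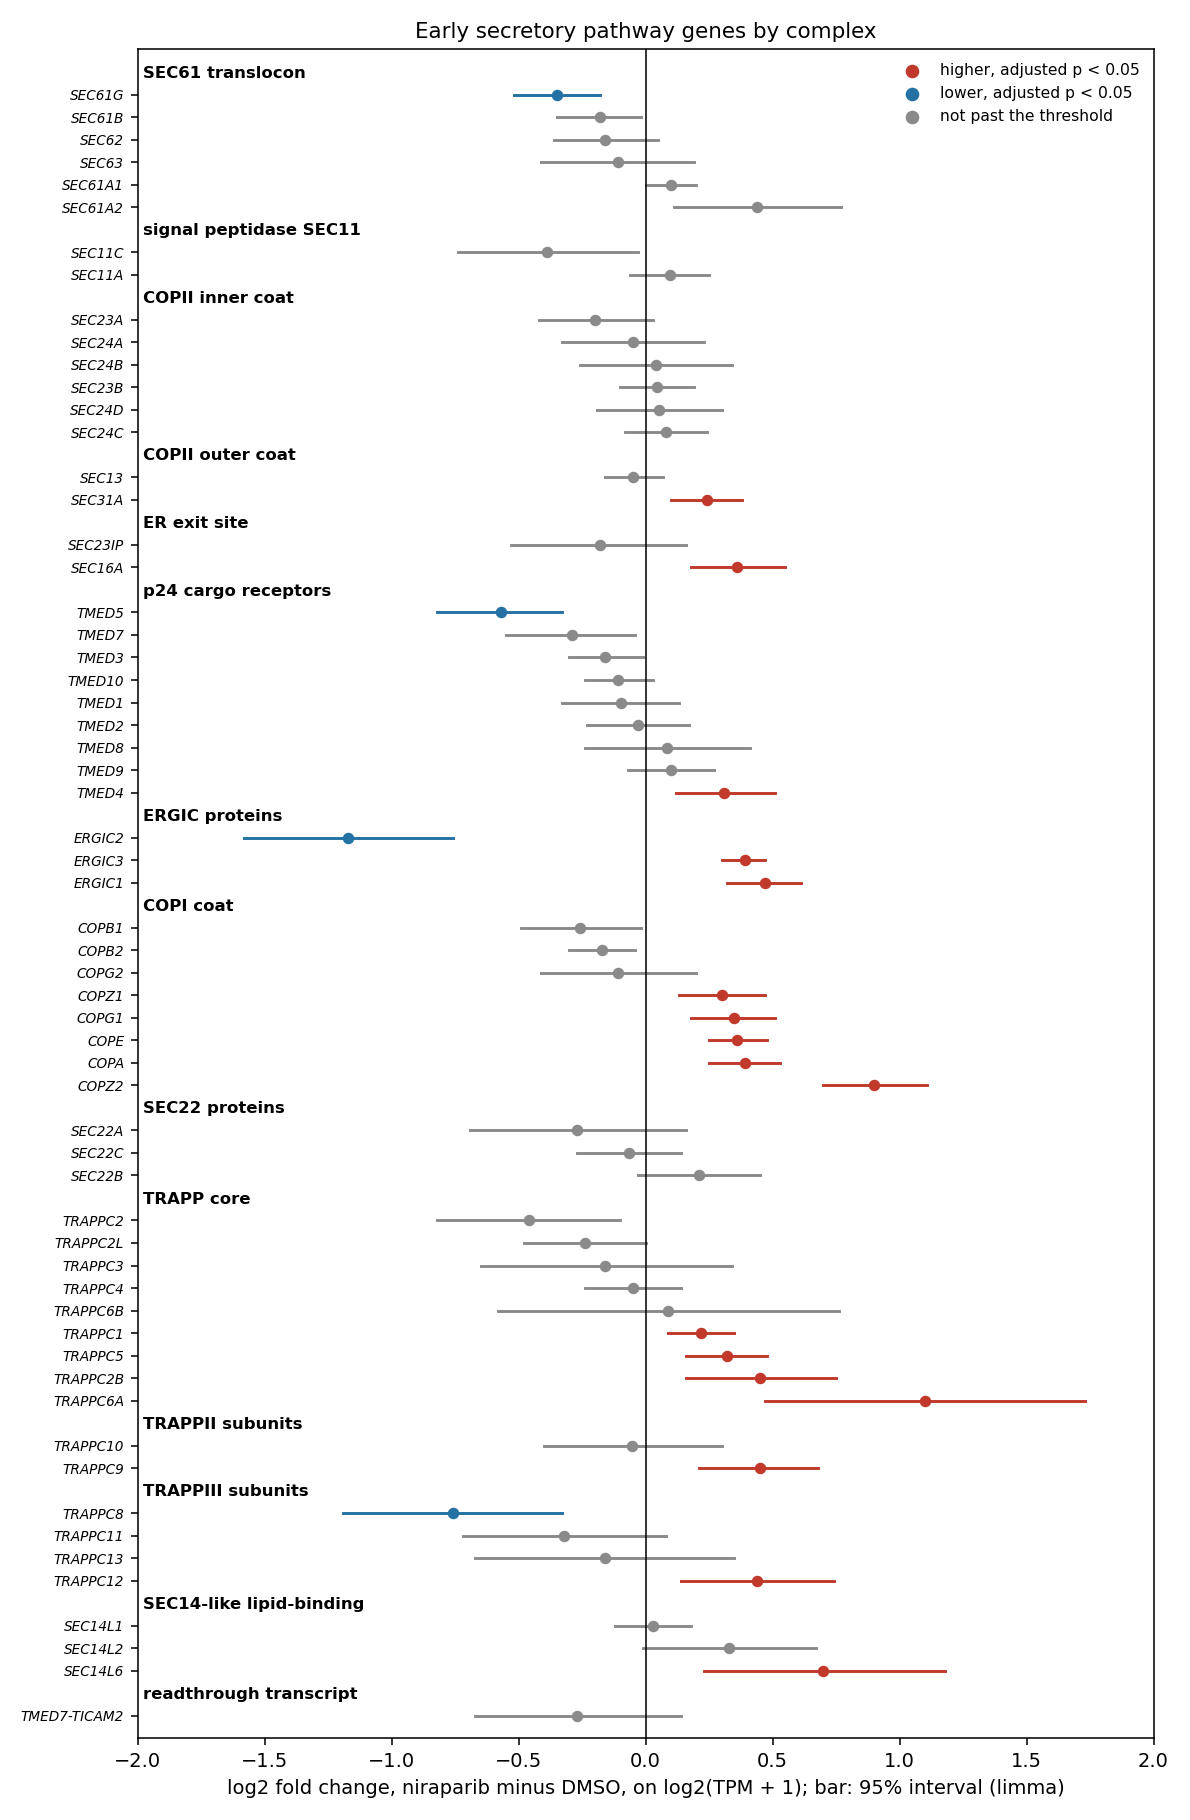
Log2 fold change of the 60 tested genes on log2(TPM + 1), niraparib minus DMSO, with the 95% interval from limma (bars), grouped by complex. The 17 genes past the threshold on the right (red) include 5 of 8 COPI subunits, and the 4 on the left (blue) reach from -0.35 for SEC61G to -1.17 for ERGIC2. Among all genes tested 20.8% were higher and 11.7% lower.

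Separation of the libraries was frequent in the whole table. Both niraparib libraries lay above both DMSO libraries for 25 of the 60 genes and below them for 20, where 41.9% and 29.0% of all genes tested did so. The split between higher and lower calls depended on the scaling of the libraries. Of the calls in TPM, 81.0% were higher among the pathway genes and 64.1% among all genes, whereas after scaling by the median of ratios these shares were 47.6% (10 higher, 11 lower) and 47.2% (1998 higher, 2233 lower). With that scaling 14 of the 21 called genes kept their calls, and COPZ1, SEC31A, TMED4, TRAPPC1, TRAPPC2B, TRAPPC5 and TRAPPC12 were no longer called higher. After upper quartile scaling 17 kept their calls, and SEC31A, TMED4, TRAPPC1 and TRAPPC12 did not. COPA, COPZ2, ERGIC1, ERGIC2 and ERGIC3 kept their calls in each of 15 refits (other scalings, filters, pseudocounts and priors, a block, GC adjustments and each library left out), and the other 16 of 21 genes lost theirs in at least 1. With a minimum change of 1.5-fold added, 5 genes were called (COPZ2, ERGIC2, SEC14L6, TRAPPC6A and TRAPPC8). Of these, SEC14L6 could enter the test only by being higher with niraparib. Only COPZ2 and ERGIC2 kept their calls in the refits and with this minimum. Of the genes not called in TPM, 15 were called in at least 1 refit, and the sign of the change turned in at least 1 refit for 25 of the 60 genes, 2 of them among the called genes.

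The GC content of the transcripts moved with the change. Across all genes tested with a GC content (n = 12371), the Spearman correlation between GC content and log2 fold change was 0.51, and across the 60 pathway genes it was 0.66. These points share 4 libraries and are given as a description. Of the 12 pathway genes under 40% GC, 0 were higher and 3 lower, beside 2.27% and 24.4% of all genes in that range. Of the 19 with at least 50% GC, 11 were higher and 0 lower, beside 37.6% and 4.77% of all genes in that range. When the GC trend of each library was removed, 10 pathway genes were higher and 3 lower, beside 13.9% and 9.28% of all genes, and the correlation across the pathway genes was 0.09. The GC-adjusted value is therefore given beside the main results. Whether the trend arose in library preparation or in the cells was not tested.

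**Figure D2:**
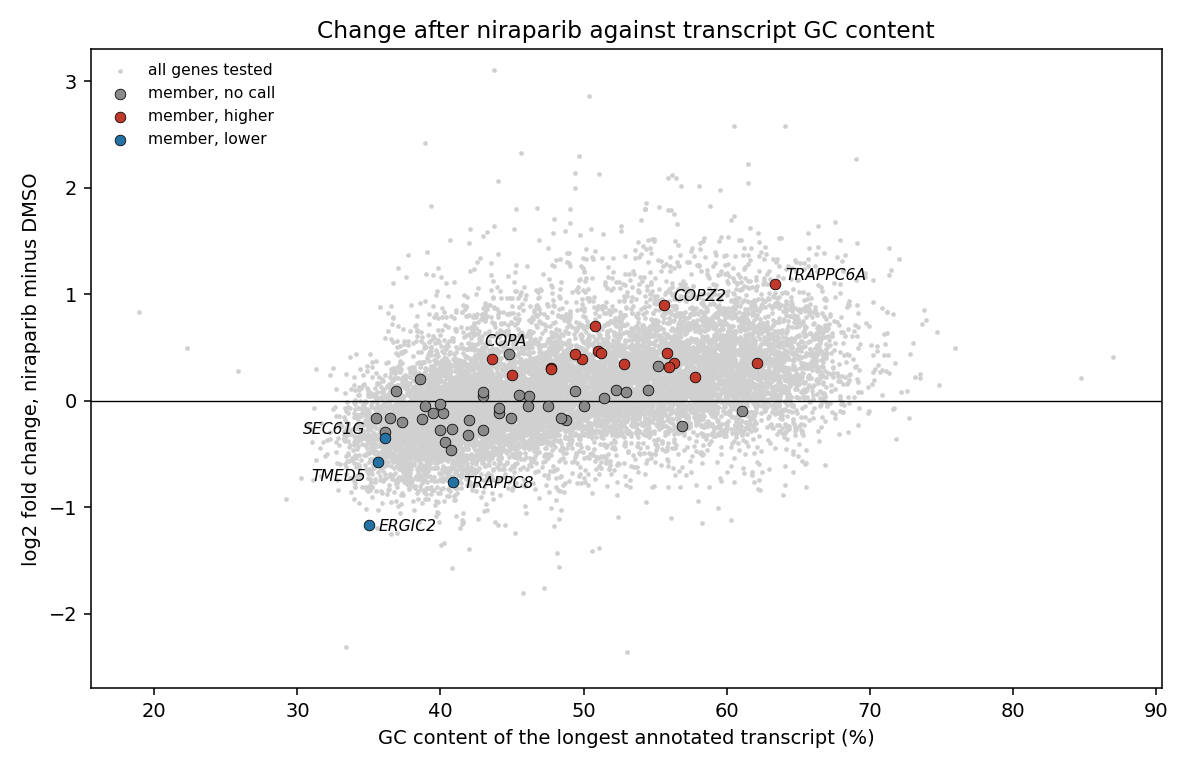
Log2 fold change on log2(TPM + 1), niraparib minus DMSO, against the GC content of the longest annotated transcript in percent, for all genes tested with a GC content (light points) and for the 60 pathway genes (large points). Higher genes (red) lie at a median GC content of 51.2% and lower genes (blue) at 35.9%, and COPA is the called gene above the line with the lowest GC content, 43.6%.

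The clearest contrast was within the ERGIC family, whose proteins cycle between the ER and the Golgi. ERGIC1 and ERGIC3 rose while ERGIC2 fell, and all 3 calls held in each of the 15 refits, but only ERGIC2 passed with a minimum of 1.5-fold. In yeast, the counterparts of ERGIC2 and ERGIC3 (Erv41 and Erv46) form a complex that retrieves escaped ER residents. ERGIC2 was at 24.4 and 18.9 TPM in the DMSO libraries and at 9.97 and 8.11 TPM in the niraparib libraries. The groups did not overlap, and the mean fell from 21.6 ± 3.85 to 9.04 ± 1.32 TPM (SD, n = 2 each). The log2 fold change was -1.17 (SE 0.162, limma adjusted p = 0.00758) and -0.79 after GC adjustment (limma adjusted p = 0.0342).

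ERGIC3 was at 290.2 and 290.5 TPM in the DMSO libraries and at 381.0 and 378.5 TPM in the niraparib libraries. Its replicates differed by far less than the groups, and its log2 fold change was 0.39 (SE 0.0347, limma adjusted p = 0.00311) and 0.34 after GC adjustment. ERGIC1 was at 70.3 and 74.7 TPM with DMSO and at 100.4 and 100.7 TPM with niraparib, again without overlap. Its log2 fold change was 0.47 (SE 0.0566, limma adjusted p = 0.00557) and 0.39 after GC adjustment. The ratio of ERGIC3 to ERGIC2 in TPM, which is per length, was 11.9 and 15.4 in the DMSO libraries and 38.2 and 46.7 in the niraparib libraries. In the GRCh37 build ERGIC2 lies on chromosome 12 at 29490285 to 29534122 (minus strand), ERGIC1 on chromosome 5 at 172261254 to 172379795 (plus strand) and ERGIC3 on chromosome 20 at 34129787 to 34145405 (plus strand).

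**Figure D3:**
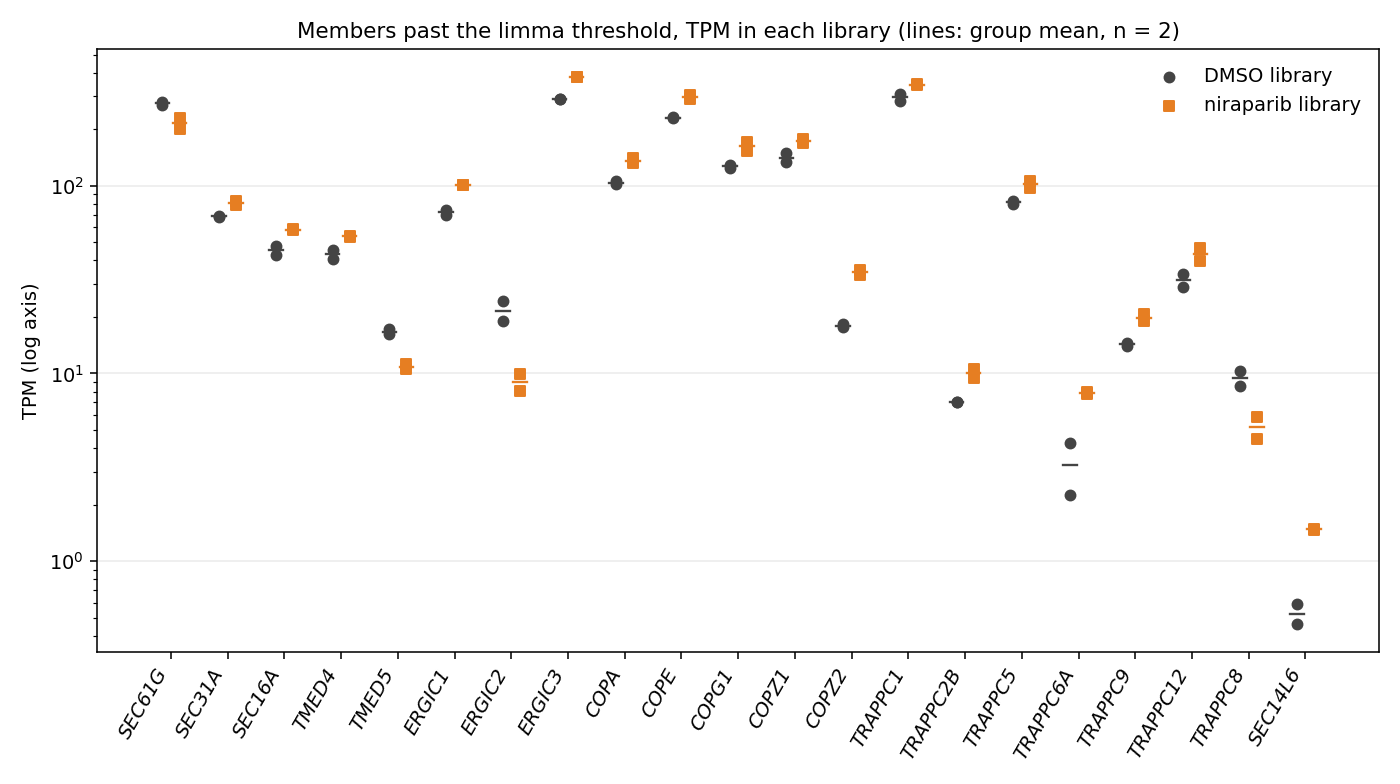
TPM on a log axis in each DMSO library (circles) and each niraparib library (squares) for the 21 genes past the limma threshold, with a line at the mean of each group (n = 2). The groups do not overlap for any of these genes, but the genes were selected by the test on these same libraries. Of all genes tested, 41.9% lay higher and 29.0% lower with niraparib without overlap. ERGIC2 drops from 24.4 and 18.9 to 9.97 and 8.11 TPM beside rising ERGIC1 and ERGIC3.

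The COPI coat is a heptamer whose subunits are recruited to membranes together. Of its 8 genes with the symbols searched, COPA, COPE, COPG1, COPZ1 and COPZ2 rose and none fell past the threshold. Among all genes tested 20.8% rose. The median change of the 8 genes was 0.324, against 0.0722 over all genes tested. After GC adjustment these medians were 0.17 and 0.0745. Once library medians were also removed, COPA and COPZ2 kept their calls and COPE, COPG1 and COPZ1 did not. The summed level of the 8 genes was 872.9 and 845.3 TPM with DMSO and 1017.0 and 1004.2 TPM with niraparib. COPZ2, the less abundant of the paralogous zeta subunits, had the greatest change of the coat. It was at 17.6 and 18.4 TPM in the DMSO libraries and at 33.3 and 35.8 TPM in the niraparib libraries. The niraparib libraries were both well above, and the log2 fold change was 0.90 (SE 0.0818, limma adjusted p = 0.00313) and 0.72 after GC adjustment (limma adjusted p = 0.00765). COPZ2 lies on chromosome 17 at 46103533 to 46115392 (GRCh37, minus strand).

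COPA, the alpha subunit, was at 106.1 and 101.9 TPM with DMSO and at 132.5 and 140.4 TPM with niraparib. It is the called COPI gene with the lowest GC content, and its log2 fold change of 0.39 (limma adjusted p = 0.00794) was 0.50 after GC adjustment. COPE, the epsilon subunit, was at 230.1 and 231.6 TPM with DMSO and at 306.5 and 288.9 TPM with niraparib. Its log2 fold change of 0.36 (limma adjusted p = 0.00571) was 0.09 after GC adjustment (limma adjusted p = 0.125), at a GC content of 62.1%. COPG1, a gamma subunit, had a change of 0.35 (limma adjusted p = 0.0158) and COPZ1, the major zeta subunit, of 0.30 (limma adjusted p = 0.0254), with 0.23 and 0.30 after GC adjustment. COPG1 missed the threshold without DMSO replicate 1 (limma adjusted p = 0.0675) and without niraparib replicate 1 (limma adjusted p = 0.0535). COPZ1 missed it without DMSO replicate 2 (limma adjusted p = 0.0891), niraparib replicate 1 (limma adjusted p = 0.112) or niraparib replicate 2 (limma adjusted p = 0.0641).

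The beta subunits did not pass the test in TPM. COPB1 was at 115.8 and 104.9 TPM with DMSO and at 85.2 and 99.6 TPM with niraparib, and COPB2, the beta-prime subunit, at 121.0 and 117.6 against 103.4 and 108.1 TPM. Both niraparib libraries were below both DMSO libraries for each gene. The change of COPB1 was -0.26 (95% interval -0.49 to -0.02, limma adjusted p = 0.0924) and that of COPB2 -0.17 (limma adjusted p = 0.0554). After GC adjustment they were -0.04 and 0.11, so the sign for COPB2 turned. After median-of-ratios scaling both were called lower (COPB1 -0.36, limma adjusted p = 0.0427, and COPB2 -0.27, limma adjusted p = 0.0177), and COPB2 also after upper quartile scaling (limma adjusted p = 0.0257). The ratio of COPA to COPB1 in TPM was 0.916 and 0.972 in the DMSO libraries and 1.56 and 1.41 in the niraparib libraries. COPG2, the minor gamma subunit, was at 7.16 to 8.35 TPM in the 4 libraries, with a change of -0.11 (limma adjusted p = 0.535). ARCN1, which encodes the delta subunit and is not matched by the symbols searched, was at 109.7 and 105.0 TPM with DMSO and at 114.0 and 119.8 TPM with niraparib, a change of 0.12 (limma adjusted p = 0.144).

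The COPII coat held 1 called gene, SEC31A. Its inner layer holds SEC23, the GTPase-activating subunit, and SEC24, which binds cargo. None of the 6 genes SEC23A, SEC23B and SEC24A to SEC24D passed the test, in TPM or in any of the 15 refits. In TPM their changes ran from -0.20 to 0.08, with 95% intervals that all lay between -0.42 and 0.34. The smallest limma adjusted p was 0.146, for SEC23A. The summed TPM of the inner coat was 206.4 and 200.7 with DMSO and 200.5 and 204.1 with niraparib, so the groups overlapped. SEC23A carried the lowest value of the group (-0.20), which was 0.13 after GC adjustment, and SEC23B (0.0432) was slightly negative after either scaling of the libraries.

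In the outer layer SEC31A, which forms the cage with SEC13, rose from 68.1 and 69.3 TPM to 79.5 and 82.8 TPM. Its log2 fold change was 0.24 (limma adjusted p = 0.0289) and 0.31 after GC adjustment. SEC31A lost its call after median-of-ratios scaling (0.14, limma adjusted p = 0.119) and upper quartile scaling (0.18, limma adjusted p = 0.0533). It missed the threshold when any 1 library was left out, with limma adjusted p of 0.133 and 0.103 without DMSO replicates 1 and 2 and of 0.0678 and 0.0883 without niraparib replicates 1 and 2. SEC13, also a part of the nuclear pore, was at 278.5 and 279.4 TPM with DMSO and at 278.2 and 261.7 TPM with niraparib, a change of -0.048 (95% interval -0.16 to 0.07). SEC31B, a paralogue, was at 0.22 and 0.42 TPM with DMSO and at 1.86 and 0.67 TPM with niraparib and was not tested.

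SEC16A was the other exit site gene above the threshold. It was at 43.0 and 47.7 TPM in the DMSO libraries and at 58.6 and 58.4 TPM in the niraparib libraries, with no overlap. The log2 fold change was 0.36 (limma adjusted p = 0.0199) and 0.17 after GC adjustment (limma adjusted p = 0.142). It missed the threshold without DMSO replicate 1 (limma adjusted p = 0.0923), niraparib replicate 1 (limma adjusted p = 0.0825) or niraparib replicate 2 (limma adjusted p = 0.0679). SEC23IP, a phospholipase-like partner of SEC23, was at 19.2 and 16.6 TPM against 17.3 and 14.0 TPM, so its groups overlapped. SEC16B, TMED6, TRAPPC3L, TRAPPC14, SEC14L3 and SEC14L4 were not analysed here.

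The p24 cargo receptors moved in both directions. These type I membrane proteins bind both coats and escort cargo such as GPI-anchored proteins. Of 9 TMED genes, TMED4 rose, TMED5 fell and 7 did not pass the test, with a median change of -0.0966. TMED5 was at 17.2 and 16.1 TPM in the DMSO libraries and at 10.5 and 11.2 TPM in the niraparib libraries. The groups were apart, and the log2 fold change was -0.57 (SE 0.0988, limma adjusted p = 0.0127), but -0.21 after GC adjustment (limma adjusted p = 0.148) at a GC content of 35.6%. TMED4 was at 45.6 and 40.8 TPM with DMSO and at 53.7 and 54.1 TPM with niraparib, a change of 0.31 (limma adjusted p = 0.0321) before and after GC adjustment.

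TMED5 missed the threshold without DMSO replicate 1 (limma adjusted p = 0.0705) or niraparib replicate 1 (limma adjusted p = 0.0566). TMED4 missed it without any 1 of the libraries, with limma adjusted p between 0.0508 without DMSO replicate 1 and 0.140 without DMSO replicate 2. The most abundant p24 gene, TMED10, was at 181.0 and 167.3 TPM against 162.6 and 160.3 TPM, a change of -0.11 (limma adjusted p = 0.185) that was -0.21 after median-of-ratios scaling (limma adjusted p = 0.0406) and 0.13 after GC adjustment. TMED3 was called lower after either scaling and TMED1 after GC adjustment (-0.36, limma adjusted p = 0.0395). TMED2, TMED9 and TMED10 are the main subunits of p24 complexes, and TMED2 and TMED9 overlapped between the groups. TMED7 was at 33.1 and 32.9 TPM against 24.6 and 29.2 TPM (log2 fold change -0.29, limma adjusted p = 0.0813). It was called lower after median-of-ratios scaling (limma adjusted p = 0.0404), after upper quartile scaling (limma adjusted p = 0.0498) and without niraparib replicate 2 (limma adjusted p = 0.0435), but its change was 0.07 after GC adjustment. TMED7 shares exons with the readthrough transcript TMED7-TICAM2, so the authors' counting could have split reads between them.

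At the entry to the ER, SEC61G, the gamma subunit of the channel, was the only 1 of 6 genes of the translocon past the threshold in TPM. It was at 270.9 and 278.9 TPM in the DMSO libraries and at 229.0 and 202.0 TPM in the niraparib libraries. The log2 fold change was -0.35 (limma adjusted p = 0.0171), but 0.01 after GC adjustment (limma adjusted p = 0.971) at a GC content of 36.1%. It also missed the threshold without DMSO replicate 1 (limma adjusted p = 0.0558) or DMSO replicate 2 (limma adjusted p = 0.0673). SEC61B, the beta subunit, was at 392.3 and 357.5 TPM against 316.2 and 343.5 TPM (log2 fold change -0.18, limma adjusted p = 0.0832). It was called lower after median-of-ratios scaling (-0.29, limma adjusted p = 0.0294), upper quartile scaling (limma adjusted p = 0.0401) and GC adjustment with centring (limma adjusted p = 0.0341). SEC61A1, the pore-forming alpha subunit, was at 205.1 and 208.7 TPM against 222.3 and 221.7 TPM, a change of 0.10 (limma adjusted p = 0.106) that was -0.01 after GC adjustment. SEC62 and SEC63, which assist post-translational entry, had changes of -0.16 and -0.11 that did not pass the test and were 0.19 and 0.15 after GC adjustment.

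SEC61A2, a minor alpha paralogue, was at 4.76 and 4.53 TPM with DMSO and at 6.33 and 7.0 TPM with niraparib (log2 fold change 0.44, limma adjusted p = 0.0541) and was called higher after GC adjustment (0.52, limma adjusted p = 0.0393) and without trend and robust priors (limma adjusted p = 0.0388). The catalytic signal peptidase subunits SEC11A and SEC11C did not pass the test. SEC11C was at 25.4 and 29.7 TPM against 18.5 and 23.3 TPM, a change of -0.39 (limma adjusted p = 0.0895) that was -0.15 after GC adjustment. None of the SEC22 genes passed it either. SEC22B, the vesicle SNARE, has near-identical pseudogene copies, so its 14.9 and 15.2 TPM with DMSO and 16.8 and 18.4 TPM with niraparib are uncertain. Its change was 0.21 (limma adjusted p = 0.146), and 0.50 after GC adjustment (limma adjusted p = 0.0166).

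The TRAPP subunits included 6 genes that rose and 1 that fell, where 20.8% of all genes tested were higher and 11.7% lower. TRAPPII and TRAPPIII share a core and differ in their added subunits, TRAPPC9 and TRAPPC10 in the former and TRAPPC8, TRAPPC11, TRAPPC12 and TRAPPC13 in the latter. In the core, TRAPPC1, TRAPPC2B, TRAPPC5 and TRAPPC6A of 9 genes rose and none fell past the threshold. Of 2 added TRAPPII genes tested TRAPPC9 rose, and of 4 in TRAPPIII TRAPPC12 rose while TRAPPC8 fell. TRAPPC1, TRAPPC2B, TRAPPC5, TRAPPC6A and TRAPPC9 have a GC content of at least 50%, a range in which 37.6% of all genes were higher. TRAPPC6A was at 2.25 and 4.26 TPM with DMSO and at 7.98 and 7.74 TPM with niraparib. Its groups did not overlap but the DMSO libraries were far apart, and the log2 fold change was 1.10 (SE 0.249, limma adjusted p = 0.0262), with 0.81 after GC adjustment (limma adjusted p = 0.0674). Without niraparib replicate 1 its limma adjusted p was 0.116 and without niraparib replicate 2 it was 0.0955. The paralogue TRAPPC6B overlapped between the groups.

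TRAPPC8, which with TRAPPC12 distinguishes TRAPPIII, was at 8.57 and 10.3 TPM in the DMSO libraries and at 4.47 and 5.89 TPM in the niraparib libraries. The log2 fold change was -0.76 (SE 0.17, limma adjusted p = 0.0257), with -0.55 after GC adjustment (limma adjusted p = 0.0651). TRAPPC12 moved the other way, from 34.1 and 29.0 TPM to 46.6 and 39.5 TPM, a change of 0.44 (limma adjusted p = 0.0429) that was 0.40 after GC adjustment (limma adjusted p = 0.0632). The ratio of TRAPPC12 to TRAPPC8 in TPM was 3.98 and 2.81 with DMSO and 10.4 and 6.71 with niraparib. TRAPPC8 missed the threshold without DMSO replicate 1 (limma adjusted p = 0.053), DMSO replicate 2 (limma adjusted p = 0.103) or niraparib replicate 1 (limma adjusted p = 0.0954), and TRAPPC12 missed it without any 1 library (limma adjusted p 0.0529 and 0.152 without DMSO replicates 1 and 2, 0.161 and 0.0546 without niraparib replicates 1 and 2). TRAPPC11 and TRAPPC13 had changes of -0.32 and -0.16 that did not pass the test, with -0.14 and 0.21 after GC adjustment.

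TRAPPC9 was at 14.0 and 14.6 TPM with DMSO and at 20.6 and 19.0 TPM with niraparib, a change of 0.45 (limma adjusted p = 0.0211) that was 0.26 after GC adjustment (limma adjusted p = 0.0764). TRAPPC5 was at 83.2 and 80.4 TPM against 97.9 and 106.6 TPM, a change of 0.32 (limma adjusted p = 0.0189) that was 0.13 after GC adjustment. TRAPPC1 was at 283.4 and 310.1 TPM against 342.7 and 348.0 TPM, a change of 0.22 (limma adjusted p = 0.0319) that was 0.00 after GC adjustment and -0.07 with each library's median also removed. These 3 genes lie at GC contents of 55.8%, 56.0% and 57.8%. Each missed the threshold without DMSO replicate 1, at limma adjusted p of 0.0962 for TRAPPC9, 0.0616 for TRAPPC5 and 0.120 for TRAPPC1. Without DMSO replicate 2 it was 0.0722 for TRAPPC9 and 0.0816 for TRAPPC5, without niraparib replicate 1 it was 0.0841 for TRAPPC9 and 0.105 for TRAPPC1, and without niraparib replicate 2 it was 0.0602 for TRAPPC5 and 0.109 for TRAPPC1.

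TRAPPC2B and TRAPPC2 are near-identical, so reads may have been split between them and both values are uncertain. TRAPPC2B was at 7.05 and 7.06 TPM against 9.45 and 10.6 TPM (log2 fold change 0.45, limma adjusted p = 0.0378), and TRAPPC2 at 5.80 and 6.84 TPM against 4.23 and 4.38 TPM (log2 fold change -0.46, limma adjusted p = 0.0593). After GC adjustment neither passed the test (0.37, limma adjusted p = 0.0762, and -0.24), and TRAPPC2 was called lower after median-of-ratios scaling (limma adjusted p = 0.0387). TRAPPC2B lost its call without any 1 library, with limma adjusted p of 0.131 and 0.125 without DMSO replicates 1 and 2 and of 0.0773 and 0.125 without niraparib replicates 1 and 2.

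Among the SEC14-like genes SEC14L6 was the only one past the threshold, at 0.46 and 0.59 TPM with DMSO and 1.47 and 1.49 TPM with niraparib. It reached the minimum of 1 TPM only in the niraparib libraries, so it could enter the test only by being higher there. Its log2 fold change was 0.70 (limma adjusted p = 0.0407) and 0.63 after GC adjustment (limma adjusted p = 0.0644), and it lost the call without any 1 library (limma adjusted p 0.163 and 0.111 without DMSO replicates 1 and 2, 0.131 and 0.119 without niraparib replicates 1 and 2). SEC14L1 had a change of 0.0293 and SEC14L2 of 0.33 (limma adjusted p = 0.117), with -0.06 and 0.16 after GC adjustment. SEC14L2 was called higher without niraparib replicate 2 (limma adjusted p = 0.0349). SEC14L5, SEC24B-AS1 and TMED2-DT were below the minimum, at 0.05 to 0.77 TPM.

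**Figure D4:**
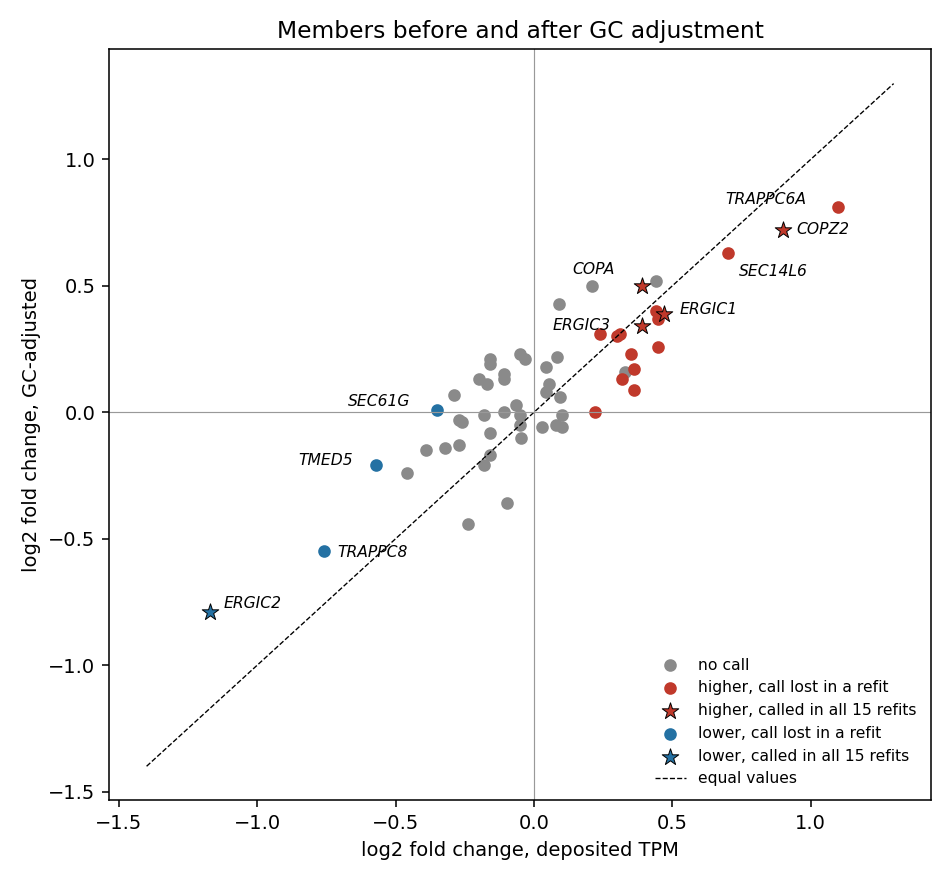
Log2 fold change after GC adjustment against that in deposited TPM for the 60 tested genes, with a dashed line at equal values. ERGIC2 (-1.17 and -0.79), COPZ2 (0.90 and 0.72) and COPA (0.39 and 0.50) stay far from 0 on both axes, whereas SEC61G moves from -0.35 to 0.01. Stars mark the 5 genes called in each of the 15 refits.

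Shares within families of paralogues are set by the TPM of genes measured in the same library. The share of COPZ2 in the summed zeta subunits was 10.6% and 12.1% in the DMSO libraries and 15.7% and 17.4% in the niraparib libraries. The mean shares differed by 5.24 percentage points (exact permutation p = 0.333, two-sided, 2 libraries against 2, adjusted p = 0.444 over 28 shares). With 2 libraries against 2, 0.333 is the smallest p that the test can give. The share of SEC23A among the SEC23 genes was 45.4% and 44.8% with DMSO and 38.7% and 43.3% with niraparib. The share of TMED4 in the p24 genes was 6.50% and 6.27% with DMSO and 8.14% and 8.19% with niraparib, while that of TMED5 was 2.45% and 2.48% against 1.59% and 1.70%.

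**Figure D5:**
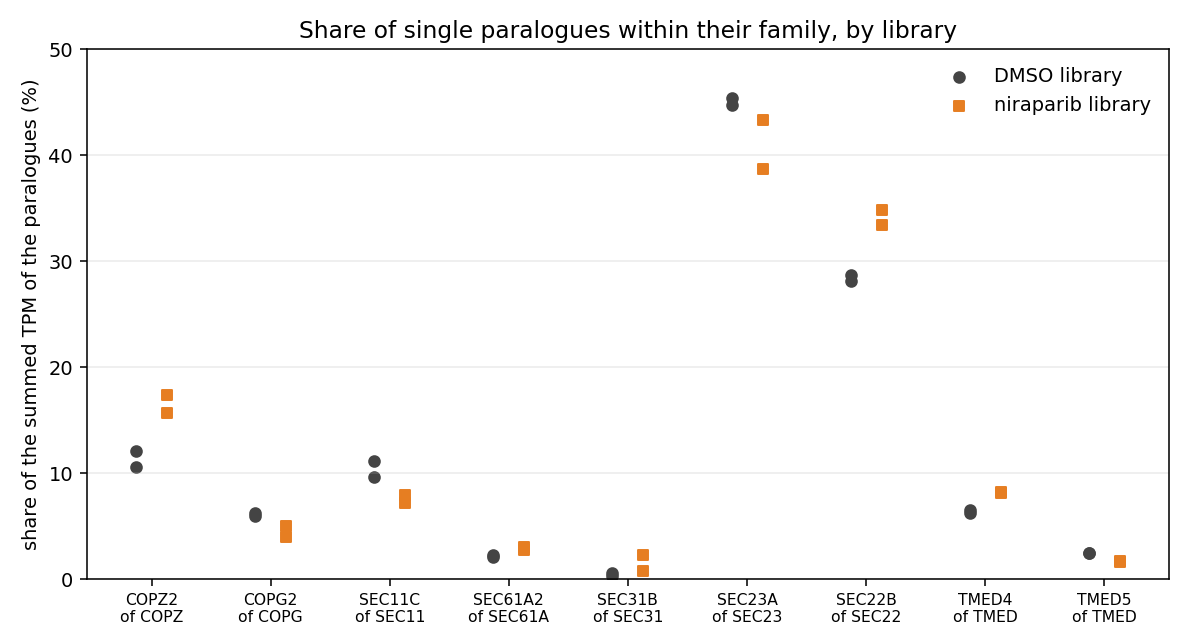
Share of single paralogues in the summed TPM of their family in percent, in each DMSO library (circles) and each niraparib library (squares). COPZ2 takes 10.6% and 12.1% of the zeta subunits with DMSO and 15.7% and 17.4% with niraparib, and SEC22B takes 28.7% and 28.1% of the SEC22 genes with DMSO and 34.8% and 33.4% with niraparib.

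The promoters of the coat genes share short motifs. The letters TGACGTG are the core of a site bound by ATF6 and XBP1, transcription factors of the unfolded protein response, and ACGTGGC is the core of a Golgi stress element bound by TFE3. RefSeq promoters (GRCh38.p14, 250 bases before to 50 after the start site) were matched for 57 of the 64 genes, and both strands were searched. ACGTGGC was found in 17 of 57 promoters (29.8%), against 4.53% of the 9860 promoters of genes tested and 3.3% of all 27305 promoters. TGACGTG was found in 9 of 57 (15.8%), against 2.59% and 2.0%. The letters overlap, since TGACGTGGC holds both. Either motif was in 21 of 57 promoters (36.8%), against 6.53% of genes tested.

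By call, either motif was in 7 of 14 promoters of higher genes, 0 of 3 of lower genes and 13 of 37 of genes with no call. It was also in 1 of 3 of genes below the filter. TMED2 and TMED2-DT share 1 bidirectional promoter. TGACGTCA, the cAMP response element, was in 2 of 57 (3.51%), against 3.42% of genes tested. The ER stress elements ERSE (CCAAT spaced from CCACG) and ERSE-II (ATTGG beside CCACG) and the amino acid response element TGATGCAAT were in 0 of 57, which says only that these letters are not in the windows. A match is a description of the letters, and no binding was measured.

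The windows of 7 genes are printed with 20 bases on each side where the start site allows, from genes that rose and from genes that did not pass the test, so that the motif can be seen in both. Capitals mark TGACGTG or ACGTGGC or their reverse complements CACGTCA and GCCACGT. COPG1, SEC31A and TRAPPC5 rose, and COPB1, COPB2, SEC24A and TMED2 did not pass the test.
COPG1 (chr3:129249578-129249605, plus strand): cctgcgcagagcgctgggcgACGTGGCc
SEC31A (chr4:82900593-82900639, minus strand): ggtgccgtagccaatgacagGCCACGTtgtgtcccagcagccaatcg
TRAPPC5 (chr19:7680691-7680737, plus strand): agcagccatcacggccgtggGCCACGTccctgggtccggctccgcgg
COPB1 (chr11:14499832-14499878, minus strand): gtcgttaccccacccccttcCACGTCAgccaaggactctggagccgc
COPB2 (chr3:139389739-139389862, minus strand): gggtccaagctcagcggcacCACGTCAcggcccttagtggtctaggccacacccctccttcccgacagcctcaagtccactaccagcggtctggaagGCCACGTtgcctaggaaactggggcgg
SEC24A (chr5:134648586-134648767, plus strand): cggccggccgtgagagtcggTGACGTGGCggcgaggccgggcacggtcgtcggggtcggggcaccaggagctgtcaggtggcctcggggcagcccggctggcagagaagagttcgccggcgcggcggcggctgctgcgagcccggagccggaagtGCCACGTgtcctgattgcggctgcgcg
TMED2 (chr12:123584437-123584483, plus strand): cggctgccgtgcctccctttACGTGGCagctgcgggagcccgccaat

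Transcription factors of secretory genes were measured as RNA only, both those named above for these motifs (ATF6, XBP1 and TFE3) and others not tied to them here, such as DDIT3. Of 9 such factors that were tested, 6 rose and 0 fell, against 20.8% higher and 11.7% lower among all genes tested. Their median change was 0.321, and 0.129 after GC adjustment. ATF6B, CREB3 and TFE3 were called in TPM but not after GC adjustment (limma adjusted p = 0.179, 0.091 and 0.452). DDIT3, a stress-induced factor, was at 14.0 and 9.43 TPM with DMSO and at 59.2 and 61.4 TPM with niraparib (log2 fold change 2.29, limma adjusted p = 0.00259, 2.25 after GC adjustment). XBP1 was at 56.2 and 59.3 TPM against 94.9 and 93.2 TPM (log2 fold change 0.69, limma adjusted p = 0.00285), and 0.88 after GC adjustment. CREB3, a membrane-bound factor of the secretory pathway, had a change of 0.32 (limma adjusted p = 0.00939) and 0.13 after GC adjustment. TFE3 had a change of 0.29 (limma adjusted p = 0.0246) that was 0.06 after GC adjustment and did not pass the test without DMSO replicate 1 (limma adjusted p = 0.115), DMSO replicate 2 (limma adjusted p = 0.0697) or niraparib replicate 1 (limma adjusted p = 0.0939). ATF6, which was at 9.74 and 10.2 TPM against 8.44 and 9.25 TPM, and HSPA5, the ER chaperone at 254.0 and 252.5 TPM against 221.9 and 235.5 TPM, did not pass the test (limma adjusted p = 0.318 and 0.0609).

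Of 110 other genes of the pathway that were tested, these factors included, 19 were higher (17.3%) and 14 lower (12.7%), against the same 20.8% and 11.7% of all genes. Cargo receptors outside the searched symbols rose in 4 of 11 and fell in 0. KDELR1, which retrieves ER residents through COPI, was at 193.1 and 191.8 TPM with DMSO and at 236.2 and 240.3 TPM with niraparib (log2 fold change 0.31, limma adjusted p = 0.00632, 0.15 after GC adjustment). LMAN2, a lectin, had a change of 0.29 (limma adjusted p = 0.00642) that was 0.07 after GC adjustment and slightly negative once library medians were also removed. KDELR1 and LMAN2 did not pass after GC adjustment, whereas another of the 4 did, with a change of 0.49 that was 0.57 after GC adjustment (limma adjusted p = 0.00905). In a list of the COPI GTPase cycle and related genes, the coat subunit ARCN1 among them, 4 of 11 genes rose and 0 fell. They included ARFGAP1, which ends the cycle (0.45, limma adjusted p = 0.0134, 0.17 after GC adjustment), GBF1, which starts it (0.39, limma adjusted p = 0.0246, 0.27 after GC adjustment), and ARF3 (0.19, limma adjusted p = 0.039, 0.08 after GC adjustment). None of these 3 passed after GC adjustment. Among 11 genes of the COPII GTPase cycle and its partners at ER exit sites 0 rose and 1 fell. This was SAR1A, a GTPase that recruits the coat, from 36.2 and 32.9 TPM to 26.8 and 27.5 TPM (log2 fold change -0.33, limma adjusted p = 0.0323, -0.19 after GC adjustment). GBF1, ARF3 and SAR1A missed the threshold without any 1 library, with limma adjusted p up to 0.108 (GBF1, DMSO replicate 2), 0.183 (ARF3, DMSO replicate 1) and 0.165 (SAR1A, DMSO replicate 1). ARFGAP1 missed it without niraparib replicate 1 (limma adjusted p = 0.0732) or 2 (limma adjusted p = 0.0504).

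Of 16 SNAREs and their regulators 2 rose and 2 fell, beside 20.8% higher and 11.7% lower among all genes tested. STX5, the Golgi SNARE, was at 61.8 and 63.6 TPM with DMSO and at 91.7 and 93.6 TPM with niraparib (log2 fold change 0.55, limma adjusted p = 0.00355, 0.37 after GC adjustment), and BET1L had a change of 0.51 (limma adjusted p = 0.00798, 0.31 after GC adjustment). SCFD1, which regulates STX5, was at 25.9 and 29.6 TPM against 16.4 and 19.4 TPM (log2 fold change -0.61, limma adjusted p = 0.0179) and missed the threshold after GC adjustment (limma adjusted p = 0.162), without DMSO replicate 2 (limma adjusted p = 0.0756) and without niraparib replicate 1 (limma adjusted p = 0.0715). Of 23 tethers and RAB GTPases 2 rose and 3 fell, among them COG4, a subunit of a Golgi tether (log2 fold change 0.71, limma adjusted p = 0.00535, 0.62 after GC adjustment), and ZW10, a subunit of an ER tether, in the other direction (-0.52, limma adjusted p = 0.0107, and 0.0614 without DMSO replicate 1). Of 29 partners at ER entry 1 rose and 8 fell, beside the same 20.8% and 11.7% of all genes. The 8 that fell lie at GC contents of 35.8% to 40.5%, and of all genes under 40% GC 24.4% were lower. None of the 8 passed after GC adjustment (limma adjusted p of at least 0.0657). SSR4 and SSR3, subunits of the same translocon-associated complex, had changes of 0.27 (limma adjusted p = 0.00809) and -0.42 (limma adjusted p = 0.00938). After GC adjustment these were 0.02 and -0.15, SSR4 turned negative once library medians were also removed, and SSR3 missed the threshold without niraparib replicate 1 (limma adjusted p = 0.0572). Of the 33 calls among these 110 genes, 24 were lost when at least 1 library was left out, and 5 held in each of the 15 refits (BET1L, COG4, DDIT3, STX5 and XBP1), of which COG4, DDIT3 and XBP1 also passed with a minimum of 1.5-fold.

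The identity of the line was checked against marker genes. PAX8, a thyroid factor, lay between 189.1 and 206.7 TPM and VIM, a mesenchymal filament, between 2014.6 and 2306.4 TPM. FOXE1, KRT8 and VIM were higher and KRT18 was lower past the threshold (log2 fold changes 0.73, 0.14, 0.18 and -0.11), and KRT8 turned negative after GC adjustment. TG, TSHR, SLC5A5 and NKX2-1 were not analysed here. Of 8 blood and endothelial markers 2 had entries, with a summed level of 20.2 and 19.8 TPM with DMSO and of 31.7 and 36.5 TPM with niraparib. Nearly all of this is CD68, which is also lysosomal, at 19.6 to 36.3 TPM (log2 fold change 0.74, limma adjusted p = 0.00675), while CDH5 did not exceed 0.41 TPM. The part of such a change in the results was not tested. Library totals were 994263.98 to 995352.53 TPM, and the median difference between replicates was 0.108 (DMSO) and 0.125 (niraparib) on the log2 scale.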

How the data were processed

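RNA from 2 DMSO and 2 niraparib libraries of Cal-62 cells was grouped by the treatment in the labels. The study's methods give trimming by Trim Galore and alignment by STAR to hg19. For these steps HISAT2 with hg38 and mm10 appears in the submitters' processing notes, next to Trim Galore. The deposited values are TPM computed by the authors, rounded to 2 decimals in a table named counts. The tool and annotation behind them are not given in the sources used here. Reads from another species were not looked for. Read counts cannot be had from TPM. The depth is therefore unknown, no counting interval can be given and the precision is the spread between libraries.

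Genes reaching 1 TPM in 2 or more libraries were tested on the log2(TPM + 1) scale, which understates the change of low genes, by limma 3.58.1 (R 4.3.3, trend and robust priors, Benjamini-Hochberg, threshold 0.05). Count tests had been planned in case the table held counts. The members and gene lists were chosen with earlier results of these data known. Named by rule were genes past the threshold with an absolute log2 fold change of at least 0.5, the most abundant and the most changed gene of each complex and up to 4 genes of each other list with the smallest p. Other named genes, the ratios and the promoter windows were chosen after their values were seen. A planned search of protein ends was not run, and protein sequences were not used here. GC content and coordinates came from GENCODE release 44 on GRCh37 (12371 tested genes), and the GC adjustment subtracted a loess trend (span 0.5) from each library's deviations. Alternatives were other scalings, filters, pseudocounts (0.1 and 0.5) and priors, a replicate block, each library left out, GC adjustments (the centred one added after the data were seen) and a minimum of 1.5-fold. With 1 library left in a group, it was taken to vary like the other group. The procedure was tested on simulated data. A few items of these lists, although counted, are not reported here by name.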

Additional observations from a re-analysis of the deposited data

How the results depend on the processing

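Of the pathway genes tested, 17 were higher and 4 lower in TPM. Higher and lower genes numbered 10 and 11 after median-of-ratios scaling, 13 and 9 after upper quartile scaling, 9 and 4 without trend and robust priors, 10 and 3 after GC adjustment, 8 and 2 with GC adjustment and the replicate block, 6 and 6 with GC adjustment and centring, and 3 and 2 with a minimum of 1.5-fold. Without 1 library there were 6 to 9 higher and 2 to 5 lower genes (7 and 2 when DMSO replicate 1 was left out, 9 and 3 for DMSO replicate 2, 6 and 2 for niraparib replicate 1, 8 and 5 for niraparib replicate 2). Their median change was -0.101 after median-of-ratios scaling, 0.102 after GC adjustment with and without the block, and -0.0111 to 0.0359 without 1 library.

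For the other pathway genes (19 higher, 14 lower) the counts were 12 and 26 after median-of-ratios scaling, 9 and 8 without trend and robust priors, 8 lower after GC adjustment, 10 and 5 with the block added, 9 higher and 10 lower with centring, 4 and 4 with the minimum fold, and 10 to 14 higher and 3 to 12 lower without 1 library. For all genes (2780 higher, 1559 lower) they were 1017 lower without trend and robust priors, 1464 and 998 with GC adjustment and the block, 1427 higher and 1787 lower with centring, 1402 and 480 with the minimum fold, and 1197 to 1616 higher and 627 to 1159 lower without 1 library. The cause of these differences was not tested. Fewer libraries also leave fewer degrees of freedom.

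The sign of the change turned for 25 of the 60 pathway genes in at least 1 refit, for 7 of them after median-of-ratios scaling, 3 after upper quartile scaling, 15 after GC adjustment with and without the block and 14 with centring. Among the pathway genes named by rule these were SEC11A (-0.00569 after median-of-ratios scaling and -0.0126 with GC adjustment and centring), SEC14L1 (-0.0703 and -0.0235 with the scalings, -0.0577 after GC adjustment with and without the block, -0.13 with centring), SEC22C (0.0338 after GC adjustment with and without the block), SEC23A and TMED10 (0.13 with both GC fits, 0.0616 and 0.0574 with centring), SEC23B (-0.0568 and -0.00987 with the scalings), SEC61G (0.00556 with both GC fits) and TRAPPC1 (-0.0689 with centring). Among the other genes it turned for KRT8 (-0.0567 with both GC fits, -0.13 with centring), SAR1B (0.0441 with both GC fits), LMAN2 (-0.00274 with centring), SSR4 (-0.0541) and SURF4 (-0.0162). Same-numbered libraries did not deviate together over all genes tested (correlation -0.0148). A single correlation over all genes cannot exclude a pairing that acts on some of them. With the replicate number as a block, 14 pathway genes were higher and 5 lower, and 2400 and 1339 of all genes. What depth limits is unknown in TPM.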
